A study of Mus musculus with 12 samples.

Results

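The 39 genes described here are expressed by, or act on, the endothelial cells that line blood vessels. They were taken by name from the gene column of the deposited expression table, with all transcripts of a gene summed. All 39 were among the 33641 gene symbols of the table and all 39 were among the 13158 that passed the filter on low values. The 12 libraries each hold RNA of the heart muscle (myocardium) of 1 male wild-type C57BL/6 mouse of about 16 weeks. The 4 groups of 3 mice had a sham operation or surgery causing myocardial infarction (MI), each followed by vehicle or by prednisone, a synthetic glucocorticoid. Weekly doses of 1 mg/kg prednisone were, per the labels' protocols, injected into the abdomen at lights-on over 6 weeks, from 2 weeks after surgery, and tissue was collected 24 h after the last dose. Vehicle mice differed from prednisone mice in the agent injected. The labels do not say which region of the infarcted heart was sampled, and no gene was altered in any group.

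Endothelial cells respond to secreted VEGF ligands through the receptors encoded by Kdr, Flt1 and Flt4, and to angiopoietins through the receptor Tek (Tie2). VEGF-A drives vessel growth and permeability, whereas angiopoietin 1 keeps vessels quiescent and angiopoietin 2 can oppose it. In the heart, a dense capillary bed supplies each cardiomyocyte with oxygen and with fatty acids, and vessels are lost and regrown around an infarct.

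Values are transcript abundances in TPM (each library sums to 1000000), a share of each library that is corrected for transcript length and carries no read depth. Between 11690 and 14307 genes reached 1 TPM in a library, and markers of cardiomyocytes summed to between 27979 and 46865 TPM. MI vehicle mouse 3 stood apart from the other 11 libraries: its lymphocyte markers summed to 176.7 TPM against 1.68 to 12.5 elsewhere, its macrophage markers to 1459 TPM against 318 to 950, and its median gene stood 0.74 above the sham vehicle mean on the log2 scale. The mitochondrial genes took between 21.6% and 42.0% of a library. Each comparison was also made after median-ratio rescaling, which divides each library by a size factor (0.866 to 1.64, the highest in MI vehicle mouse 3) so that the typical gene is level.

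In vehicle-treated mice, infarction was accompanied by higher levels of many endothelial genes. Of the 39 genes, 18 rose and 0 fell by limma at an adjusted p under 0.05, where 15.1% of all 13158 genes rose and 0.904% fell. The median change of the 39 was 0.46 on the log2 scale, and that of all genes tested was 0.39, a difference of 0.07. After rescaling, 3 of the 39 rose and 1 fell (background 3.72% and 3.72%), and the 3 that rose under both scalings were Plvap, Flt4 and Angpt2. The count rested on few libraries, since 1 gene was called without sham vehicle mouse 1, 1 without sham vehicle mouse 3 and 8 without MI vehicle mouse 3. It was 9 to 11 without sham vehicle mouse 2, MI vehicle mouse 2 or any 1 of the sham prednisone mice. Flt4 was the 1 member called without any 1 of the 12 libraries. With these 6 libraries fitted alone, limma called 0 of the 39, with 23 at an unadjusted p under 0.05.

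Among infarcted hearts, 14 of the 39 were lower and 3 higher with prednisone as deposited. This comparison shares the MI vehicle mice with that of infarction in vehicle mice, so the calls of both rest in part on the same libraries. Of all genes 2.5% rose and 34.9% fell. The median change of the 39 was -0.30, against -0.41 for all genes. After rescaling 11 rose and 6 fell (background 14.6% and 14.2%). Egfl7, Vegfa and Vegfb rose under both scalings, and Flt4, Erg, Fli1, Plvap, Ednrb and Ptprb fell under both. The share of the 39 that fell was close to the background under both scalings, and the share that rose was above it. Of the 17 genes called as deposited, 12 kept the call without any 1 library. Of the 12 fits with 1 library left out, Angpt2 kept its call in 0 and Flt1 in 3. Egfl7 and Vegfc kept theirs in 10 and Angpt1 in 11. With the 6 MI libraries fitted alone, 5 were called.

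In prednisone-treated mice, 4 of the 39 rose and 5 fell with infarction, against 2.73% and 14.1% of all genes. After rescaling the counts were 11 and 2 (background 11.7% and 14.3%). Vwf, Robo4, Egfl7 and Ly6c1 rose and Tek and Ptprb fell under both scalings. The count was 18 without MI vehicle mouse 3, which entered only through the shared estimate of spread, 14 without MI prednisone mouse 3, 3 without any 1 of the sham prednisone mice, and 2 without MI prednisone mouse 1 or mouse 2. Vwf and Egfl7 were called without any 1 of the 12 libraries.

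In sham hearts limma called 0 of the 39 higher or lower with prednisone, with 4 at an unadjusted p under 0.05. Of all genes, 0.0532% rose and 0.0608% fell as deposited, and 0.0532% and 0.0684% after rescaling, when 0 of the 39 were again called. The difference between the prednisone effect in MI and in sham hearts was positive in 0 and negative in 13 of the 39 as deposited (background 0.54% and 20.7%), and positive in 3 and negative in 4 after rescaling (background 5.12% and 4.93%). As deposited it was called in 7 without sham vehicle mouse 1 or mouse 3 or sham prednisone mouse 3, and in 8 without sham prednisone mouse 1. The 4 comparisons share groups of mice, so their calls are not independent of each other. The p-values rest on the spread between mice within a group, pooled over all 4 groups and moderated across genes by limma. In whole tissue, fewer endothelial cells and less RNA of a gene per cell cannot be told apart.

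**Figure D1:**
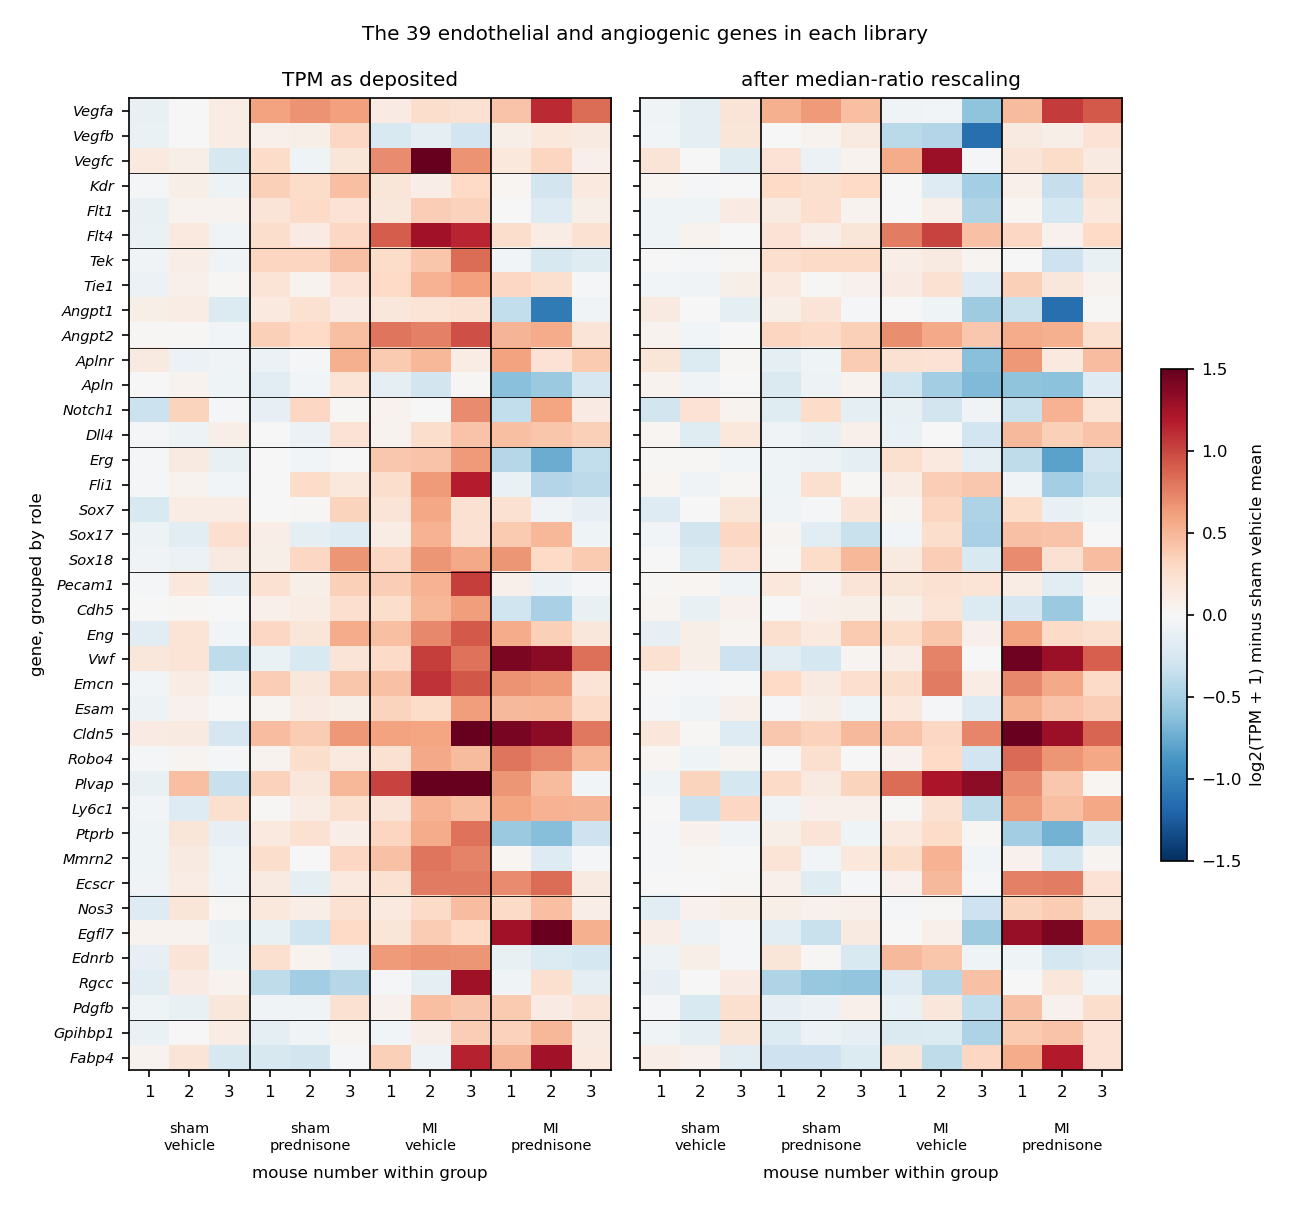
Log2(TPM + 1) of the 39 genes (rows, grouped by role) in the 12 libraries (columns, numbered within each group), minus the sham vehicle mean, as deposited on the left and after median-ratio rescaling on the right; values beyond 1.5 in either direction take the end colour. The reds of MI vehicle mouse 3 on the left fade on the right, whereas Plvap and Flt4 stay high in MI vehicle and Vwf, Egfl7 and Vegfa stay high in MI prednisone.

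The ligands of the VEGF family differed in direction. Vegfa (chromosome 17, 46016993 to 46032369, minus strand, GRCm38), which encodes the main angiogenic ligand, stood at 65.0, 70.0 and 76.1 TPM in the sham vehicle mice and at 107, 113 and 108 TPM in the sham prednisone mice. In infarcted hearts it stood at 76.5, 84.2 and 82.4 TPM with vehicle and at 94.9, 153.5 and 126.2 TPM with prednisone. The 6 prednisone-treated mice, with a lowest value of 94.9 TPM, all lay above the 6 vehicle-treated mice, with a highest value of 84.2 TPM. Vegfa was the 1 member of the 39 with this separation, which held for 0.304% of all genes tested.

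In MI hearts the rise of Vegfa with prednisone was called (log2 change 0.59, SE 0.15, limma adjusted p = 0.0105), and it was 1.05 after rescaling. In sham hearts the log2 change was 0.63 (SE 0.15) and was not called with adjustment over all genes (limma adjusted p = 0.547); with only the 6 sham libraries fitted, the limma adjusted p was 0.0403. The difference between the prednisone effects in MI and in sham hearts was -0.04 (SE 0.21, limma adjusted p = 0.905). The change in MI hearts was 0.17 and not called (limma adjusted p = 0.338) when only transcripts with a complete coding sequence were summed, whereas the change in sham hearts was then 0.68. With the 6 MI libraries fitted alone, the limma adjusted p of the MI change was 0.0882.

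Vegfb (chromosome 19), whose product binds Flt1 and is abundant in heart muscle, was the most highly expressed of the 3 ligands, at 189 ± 13.6 TPM in sham vehicle hearts (SD, n = 3). Its values were 161, 172 and 154 TPM in MI vehicle mice and 200, 211 and 208 TPM in MI prednisone mice, without overlap. It rose with prednisone in MI hearts by 0.35 on the log2 scale (SE 0.09, limma adjusted p = 0.0166) and by 0.80 after rescaling. It was not called after the length correction (0.57, limma adjusted p = 0.0515) or with the MI libraries fitted alone (limma adjusted p = 0.103). In vehicle mice all 3 MI values lay below the sham values of 176, 188 and 203 TPM, a change of -0.22 that was not called as deposited (limma adjusted p = 0.109) and was -0.66 and called after rescaling (limma adjusted p = 0.0456). Vegfc (chromosome 8), the ligand of lymphatic growth, was higher in MI vehicle (5.93, 11.4 and 5.76 TPM) than in sham vehicle (3.72, 3.51 and 2.60 TPM) and in MI prednisone hearts (3.74, 4.33 and 3.47 TPM). Both changes of Vegfc were called as deposited (0.97 and -0.79) and neither was after rescaling (0.61 and -0.41). The rise was not called without sham vehicle mouse 1 or mouse 3, nor the fall without MI prednisone mouse 1 or mouse 3.

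The Vegfa transcripts differ in the exons that give VEGF-A its ability to bind heparan sulfate in the matrix, so the bases that tell them apart are shown. Vegfa-207 holds an exon of 72 bases (chr17:46022277-46022348, minus strand, in capitals) that Vegfa-202 lacks, and the coding sequence of Vegfa-202 runs through the flanking bases without a break.
Vegfa-207: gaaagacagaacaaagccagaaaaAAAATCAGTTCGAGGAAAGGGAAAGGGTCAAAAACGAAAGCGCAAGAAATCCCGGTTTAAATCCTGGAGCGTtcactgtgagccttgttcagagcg
Vegfa-202: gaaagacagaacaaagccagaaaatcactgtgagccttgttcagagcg

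In the 9 libraries outside MI prednisone the form without that exon took 39.5% to 47.2% of Vegfa and the form with it 19.9% to 27.7%. In MI prednisone hearts, Vegfa-207 stood at 4.96, 6.70 and 10.7 TPM, below every other library, whose lowest value was 12.9 TPM. Vegfa-207 then took 4.36% to 8.48% of the gene. Vegfa-201, with 438 coding bases, stood at 11.8, 20.3 and 10.7 TPM there and at 2.01 to 6.73 TPM in the other 9 libraries. Vegfa-206 and Vegfa-208, annotated as retained introns of 640 and 550 bases, reached 19.98 ± 6.55 and 12.5 ± 3.38 TPM in MI prednisone hearts against 4.55 ± 1.39 and 3.56 ± 1.26 TPM in MI vehicle hearts (SD, n = 3). In sham hearts the higher level with prednisone lay mainly in Vegfa-202 (29.5 ± 3.81 to 45.7 ± 3.66 TPM) and Vegfa-207 (15.3 ± 2.15 to 25.9 ± 4.52 TPM), both of them complete coding transcripts. No test was run on these transcript values.

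Among the VEGF receptors, the lymphatic receptor gene Flt4 moved most. Flt4 (chromosome 11, 49609263 to 49652739, plus strand) stood at 2.51, 3.17 and 2.62 TPM in sham vehicle mice and at 6.03, 8.02 and 7.29 TPM in MI vehicle mice. It stood at 3.52, 3.09 and 3.65 TPM in sham prednisone mice and at 3.51, 3.06 and 3.40 TPM in MI prednisone mice. The MI vehicle mice lay above all the other 9. The log2 change with infarction in vehicle mice was 1.10 (SE 0.14, limma adjusted p = 0.00505), 0.74 after rescaling, and it remained called without any 1 of the 12 libraries. With prednisone in MI hearts Flt4 fell by 0.90 (limma adjusted p = 0.00148), and by 0.52 after rescaling. After correction for transcript length that change was -0.21 and not called.

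Kdr, the main signalling receptor for VEGF-A, and Flt1, which binds VEGF-A tightly and can hold it from Kdr, ranged over the 12 libraries from 19.7 to 33.5 and from 12.6 to 19.1 TPM. Kdr (chromosome 5, 75932827 to 75978458) stood at 23.9, 25.7 and 22.9 TPM in sham vehicle mice, 31.3, 29.4 and 33.5 TPM in sham prednisone mice, 27.5, 25.8 and 29.8 TPM in MI vehicle mice and 24.7, 19.7 and 26.8 TPM in MI prednisone mice. The sham prednisone values lay above those of sham vehicle and MI prednisone mice and overlapped those of MI vehicle mice. Kdr fell with infarction in prednisone mice by 0.40 as deposited (SE 0.12, limma adjusted p = 0.0484), a call that was lost after rescaling, and after the length correction the value was 0.02, in the other direction. Flt1 (chromosome 5, 147561604 to 147726011) stood at 13.4, 15.2 and 15.2 TPM in sham vehicle mice, 16.8, 17.9 and 17.1 TPM in sham prednisone mice, 16.5, 19.1 and 18.7 TPM in MI vehicle mice and 14.5, 12.6 and 15.5 TPM in MI prednisone mice. Its change with prednisone in MI hearts was -0.33 as deposited (limma adjusted p = 0.037) and 0.10 after rescaling, not called and of the other sign.

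Flt1 makes a full-length receptor and a shorter product. The coding ends of both are shown because each has its own deposited value. Flt1-202 and Flt1-203 share 1972 coding bases, and reads within these bases cannot be assigned to either transcript by their sequence alone. After these, Flt1-203 reads on for 95 bases (chr5:147639130-147639224, minus strand) to a stop codon, which gives it 2067 coding bases, while Flt1-202 goes on in another exon (chr5:147634429-147634523 for the bases shown) to 4002. Capitals mark the bases after the shared part.
Flt1-203: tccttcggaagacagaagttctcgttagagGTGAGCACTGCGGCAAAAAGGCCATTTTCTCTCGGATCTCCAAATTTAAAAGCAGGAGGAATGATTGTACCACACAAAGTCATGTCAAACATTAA
Flt1-202: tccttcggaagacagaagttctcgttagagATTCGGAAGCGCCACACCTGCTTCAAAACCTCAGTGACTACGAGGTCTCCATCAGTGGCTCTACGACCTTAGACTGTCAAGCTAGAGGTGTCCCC

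The short form took 18.9% to 26.4% of Flt1 over the 12 libraries. It stood at 3.46 ± 0.681 TPM in sham vehicle, 3.58 ± 0.265 TPM in sham prednisone, 4.44 ± 0.681 TPM in MI vehicle and 2.79 ± 0.353 TPM in MI prednisone hearts (SD, n = 3). Its share was 18.9% to 20.5% in MI prednisone and 22.4% to 26.4% in MI vehicle mice, without overlap, and 20.2% to 26.4% in sham vehicle mice, which overlapped both. No test was run on these shares.

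In the angiopoietin and Tie group, Angpt2 rose with infarction in vehicle mice. Angpt2 (chromosome 8, 18690263 to 18741562, minus strand) was the least abundant of the 39, at 1.06, 1.06 and 0.978 TPM in sham vehicle mice, 1.60, 1.5 and 1.78 TPM in sham prednisone mice, 2.55, 2.43 and 2.97 TPM in MI vehicle mice and 1.90, 2.00 and 1.32 TPM in MI prednisone mice. The MI vehicle values lay above all others, and the sham vehicle values below all others. The log2 change with infarction in vehicle mice was 0.84 (SE 0.15, limma adjusted p = 0.0108) and 0.55 after rescaling, on a scale that understates changes at such low levels. Without sham vehicle mouse 1 or mouse 3 the call was lost, with values within 0.78 to 0.88 over all left-out libraries. After the length correction the change was 0.42 and not called.

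Angpt1, made by pericytes and muscle cells as the activating ligand of Tek, stood at 10.4, 10.6 and 8.34 TPM in sham vehicle mice, 10.9, 11.6 and 10.8 TPM in sham prednisone mice, 11.1, 11.4 and 11.6 TPM in MI vehicle mice and 7.30, 4.16 and 9.39 TPM in MI prednisone mice. MI vehicle and MI prednisone mice did not overlap. The change of -0.69 was called as deposited (limma adjusted p = 0.0248) and was -0.28 and not called after rescaling, and it was -0.41 and not called without MI prednisone mouse 2.

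Tek (chromosome 4, 94739289 to 94874976, plus strand) stood at 12.5, 14.1 and 12.5 TPM in sham vehicle mice, 16.5, 16.5 and 18.0 TPM in sham prednisone mice, 16.0, 17.7 and 24.2 TPM in MI vehicle mice and 12.7, 10.8 and 11.3 TPM in MI prednisone mice. In sham hearts the prednisone mice lay above the vehicle mice, and in MI hearts below them. The difference between those effects was -1.03 (SE 0.20, limma adjusted p = 0.0105) and -0.51 after rescaling, called in both, and it was called without any 1 library as deposited. After the length correction it was -0.29 and not called. In prednisone mice Tek fell with infarction by 0.52 (limma adjusted p = 0.0329), and by 0.42 after rescaling; as deposited this call was kept without any 1 of 4 libraries and lost without any 1 of the other 8.

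Tie1, the partner receptor of Tek, stood at 18.5, 20.8 and 20.03 TPM in sham vehicle mice, 22.9, 20.5 and 23.2 TPM in sham prednisone mice, 24.6, 28.8 and 30.7 TPM in MI vehicle mice and 24.8, 23.4 and 19.4 TPM in MI prednisone mice. It rose with infarction in vehicle mice as deposited (0.48, limma adjusted p = 0.0302) and was level with the typical gene after rescaling (0.05, not called).

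The apelin and Notch genes held no call as deposited. Apln, the ligand of the apelin system and a gene of sprouting tip cells, stood at 5.32, 5.52 and 5.00 TPM in sham vehicle mice, 4.62, 5.08 and 6.21 TPM in sham prednisone mice, 4.68, 4.19 and 5.37 TPM in MI vehicle mice and 3.07, 3.28 and 4.28 TPM in MI prednisone mice. In prednisone mice the MI values lay below the sham values (-0.48, limma adjusted p = 0.052, not called). Its receptor gene Aplnr stood at 9.67, 8.12 and 8.36 TPM, 8.15, 8.49 and 13.0 TPM, 11.8, 12.7 and 9.50 TPM, and 13.7, 10.2 and 11.7 TPM in the same order of groups, with overlap in every comparison.

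Dll4, a Notch ligand of tip cells and arteries, stood at 4.71, 4.47 and 5.12 TPM in sham vehicle mice, 4.77, 4.43 and 5.72 TPM in sham prednisone mice, 5.00, 5.90 and 6.73 TPM in MI vehicle mice and 6.85, 6.69 and 6.38 TPM in MI prednisone mice. Its change with prednisone in MI hearts was 0.16 as deposited, 0.55 after rescaling (limma adjusted p = 0.0064) and 0.74 after the length correction (limma adjusted p = 0.00457). Notch1, a receptor for Dll4, stood at 6.21, 10.3 and 7.93 TPM, 7.30, 10.1 and 8.09 TPM, 8.32, 7.95 and 13.7 TPM, and 5.95, 12.5 and 8.83 TPM in the same order of groups. The groups overlapped in every comparison, and Notch1 was not called in any comparison as deposited or rescaled.

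Of the 5 transcription factors, Erg and Fli1, both ETS factors that maintain endothelial identity, fell with prednisone in MI hearts, and the 3 SoxF genes were not called in any comparison under either scaling. Erg (chromosome 16, 95359169 to 95586593, minus strand) stood at 10.3, 11.7 and 9.70 TPM in sham vehicle mice, 10.5, 10.2 and 10.6 TPM in sham prednisone mice, 14.3, 14.5 and 16.9 TPM in MI vehicle mice and 7.60, 5.91 and 7.96 TPM in MI prednisone mice. The MI vehicle mice lay above all the other 9 and the MI prednisone mice below them. The log2 fall of Erg with prednisone in MI hearts was 1.00 (SE 0.13, limma adjusted p = 0.000858) and 0.58 after rescaling. It was called without any 1 library. The length correction does not cover Erg, which has no transcript length in the annotation used.

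Fli1 (chromosome 9, 32422204 to 32542861, minus strand) stood at 5.73, 6.07 and 5.58 TPM in sham vehicle mice, 5.78, 7.20 and 6.57 TPM in sham prednisone mice, 7.18, 9.56 and 14.3 TPM in MI vehicle mice and 5.36, 3.99 and 4.16 TPM in MI prednisone mice. The MI prednisone values were again the lowest of the 12. The log2 change with prednisone in MI hearts was -1.0 (SE 0.20, limma adjusted p = 0.00425), -0.60 after rescaling and -0.49 after the length correction, called in all 3. It was not called with the MI libraries fitted alone, or when a replicate block was added to the length correction. Fli1 is also expressed in blood cells, and its highest value was in MI vehicle mouse 3, the library with the highest lymphocyte and macrophage markers; without that library the change was -0.77 and called. The part of those cells in the result was not tested. Sox7, Sox17 and Sox18 ranged over the 12 libraries from 3.97 to 7.75, 4.64 to 8.28 and 15.5 to 26.9 TPM.

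Of the 13 junction and surface genes, 10 rose with infarction in vehicle mice as deposited (15.1% of all genes), and 1 after rescaling (3.72%). That gene was Plvap (chromosome 8, 71497765 to 71511752, minus strand), which encodes the protein of the diaphragms that span endothelial fenestrae and caveolae. Plvap stood at 15.9, 24.1 and 13.5 TPM in sham vehicle mice, 22.3, 19.6 and 24.8 TPM in sham prednisone mice, 35.8, 51.1 and 80.9 TPM in MI vehicle mice and 27.8, 24.4 and 16.8 TPM in MI prednisone mice. The MI vehicle mice lay above all the other 9, which overlapped among themselves.

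The log2 change of Plvap with infarction in vehicle mice was 1.56 (SE 0.29, limma adjusted p = 0.0115), 1.13 after rescaling, and 1.26 without MI vehicle mouse 3, called in each. It was not called without sham vehicle mouse 1 or mouse 3 (values over all left-out libraries 1.26 to 1.84). With prednisone in MI hearts Plvap fell by 1.20 (limma adjusted p = 0.00957), by 0.75 after rescaling and by 0.81 after the length correction, called in each, and was not called with the MI libraries fitted alone (limma adjusted p = 0.0633). The difference from the prednisone effect in sham hearts was -1.54 (SE 0.41, limma adjusted p = 0.0264) and -1.0 after rescaling. It was not called after the length correction (-1.10, limma adjusted p = 0.0692), with no filter, or without sham vehicle mouse 1 or mouse 3 or sham prednisone mouse 1 or mouse 3.

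Ptprb (chromosome 10, 116275523 to 116389535, plus strand), which encodes the phosphatase that dampens Tek, stood at 11.2, 13.4 and 10.7 TPM in sham vehicle mice, 13.1, 13.9 and 12.6 TPM in sham prednisone mice, 14.9, 17.7 and 21.3 TPM in MI vehicle mice and 7.64, 7.18 and 9.24 TPM in MI prednisone mice. MI vehicle values were the highest of the 12 and MI prednisone values the lowest. The fall with prednisone in MI hearts was 1.06 (SE 0.15, limma adjusted p = 0.00104), 0.64 after rescaling and 0.36 after the length correction. It was called in every alternative tried and without any 1 library. With infarction in prednisone mice Ptprb fell by 0.66 (limma adjusted p = 0.0123) and by 0.56 after rescaling, whereas the value was -0.11 and not called after the length correction. That fall was not called without sham prednisone mouse 2 or MI prednisone mouse 1 or mouse 2. Its transcripts were the longest of the 33 members with a length, with a mean of 11202 bases.

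**Figure D2:**
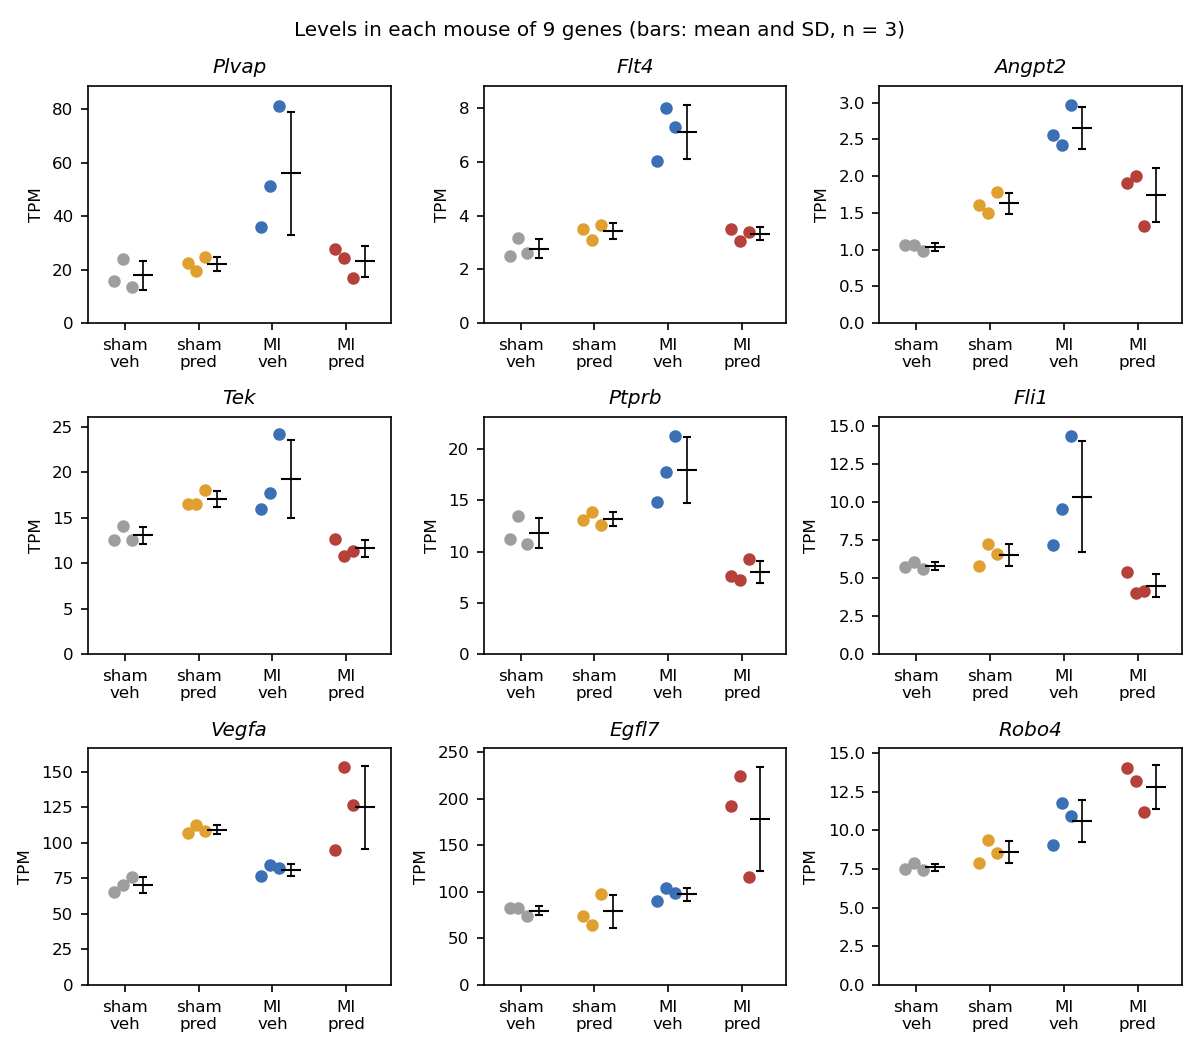
TPM (vertical axes, from 0) of 9 genes in each of the 12 mice, by group (veh, vehicle; pred, prednisone); points are mice, and the bar beside them is the mean with its SD (n = 3). Plvap, Flt4 and Angpt2 are highest in MI vehicle, Tek, Ptprb and Fli1 have their lowest means in MI prednisone, and the 6 prednisone mice have the highest Vegfa.

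The general endothelial markers Pecam1 and Cdh5 were highest in MI vehicle mice, and Cdh5 was lowest in MI prednisone mice. Pecam1 (CD31, chromosome 11, 106654217 to 106750628) stood at 45.7, 52.0 and 42.6 TPM in sham vehicle mice, 54.7, 49.7 and 60.1 TPM in sham prednisone mice, 60.3, 67.4 and 96.6 TPM in MI vehicle mice and 49.1, 43.9 and 45.6 TPM in MI prednisone mice. Cdh5 (VE-cadherin, chromosome 8, 104101625 to 104144511) stood at 41.5, 42.2 and 41.5 TPM, 44.0, 45.2 and 49.9 TPM, 50.4, 59.5 and 65.0 TPM, and 33.9, 29.6 and 38.6 TPM in the same order. Their changes with infarction in vehicle mice were 0.64 and 0.46 as deposited, both called by limma (adjusted p = 0.0272 and 0.0323), and 0.20 and 0.03 after rescaling, neither called. With prednisone in MI hearts they were -0.66 and -0.76 as deposited, both called, and -0.20 and -0.31 after rescaling, neither called. With infarction in prednisone mice Cdh5 fell by 0.44 (SE 0.12, limma adjusted p = 0.0312), a call lost after rescaling (-0.34), after the length correction (-0.16) and without any 1 of 6 of the 12 libraries. Pecam1 was -0.24 and not called. In the interaction both were called as deposited (-0.88 and -0.91, against -0.48 for the median gene) and neither after rescaling.

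Cldn5, a tight junction gene, and Emcn, a surface sialomucin of capillaries and veins, rose with infarction in vehicle mice as deposited. Cldn5 stood at 13.9, 14.0 and 10.4 TPM in sham vehicle mice, 17.8, 16.7 and 20.3 TPM in sham prednisone mice, 19.6, 19.6 and 38.8 TPM in MI vehicle mice and 35.7, 33.7 and 22.7 TPM in MI prednisone mice. Its change with infarction in vehicle mice was 0.91 (limma adjusted p = 0.0388), and 0.60 and not called without MI vehicle mouse 3. Emcn stood at 26.2, 29.2 and 25.7 TPM, 35.1, 30.5 and 36.4 TPM, 36.9, 58.2 and 52.6 TPM, and 43.8, 42.4 and 31.3 TPM in the same order. Its change of 0.82 (limma adjusted p = 0.0176) was 0.39 and not called after rescaling. The lowest Cldn5 and Emcn values of MI vehicle mice were above the highest of sham vehicle mice in both genes. After rescaling Cldn5 was called higher in MI prednisone than in MI vehicle mice (0.72) and than in sham prednisone mice (0.80).

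Robo4, a receptor that stabilises vessel junctions, stood at 7.49, 7.90 and 7.46 TPM in sham vehicle mice, 7.91, 9.36 and 8.51 TPM in sham prednisone mice, 9.09, 11.8 and 11.0 TPM in MI vehicle mice and 14.0, 13.2 and 11.2 TPM in MI prednisone mice. It rose with infarction in prednisone mice by 0.52 (SE 0.13, limma adjusted p = 0.0189), by 0.62 after rescaling and by 0.74 after the length correction. The call was lost without sham prednisone mouse 1 or mouse 3, or MI prednisone mouse 1 or mouse 2. Ly6c1, a surface protein of capillary endothelium, rose in the same comparison from 108, 116 and 127 TPM to 162, 154 and 153 TPM, by 0.41 (limma adjusted p = 0.0455), a call kept without any 1 of 4 libraries and lost without any 1 of the other 8. After the length correction the Ly6c1 change was 0.16 and not called (limma adjusted p = 0.637). Of its 1758 sequence words of 31 bases, 581 also occur in Ly6c2, which is expressed in monocytes, so its values are uncertain.

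The remaining 4 surface genes are Esam and Ecscr, which help cells adhere, Eng, a co-receptor for BMP9, and Mmrn2, a matrix protein that binds VEGF-A. Eng, Esam and Mmrn2 rose with infarction in vehicle mice as deposited (0.70, 0.41 and 0.66), and after rescaling they did not (0.26, -0.02 and 0.25, with Esam on the other side of 0). Mmrn2 fell with prednisone in MI hearts as deposited (-0.73, limma adjusted p = 0.00331) and not after rescaling (-0.30). Of the 2 scalings and the 4 comparisons, Ecscr was called in 1, higher with infarction in prednisone mice after rescaling (0.62, limma adjusted p = 0.0218).

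Vwf, which encodes the clotting factor stored in endothelial granules and platelets, gave opposite results for the gene sum and for its full-length transcript. Vwf (chromosome 6, 125546774 to 125686679, plus strand) stood at 26.1, 26.7 and 17.5 TPM in sham vehicle mice, 21.4, 19.6 and 26.5 TPM in sham prednisone mice, 28.2, 48.4 and 41.2 TPM in MI vehicle mice and 63.1, 60.4 and 41.5 TPM in MI prednisone mice. With infarction in prednisone mice the gene sum rose by 1.24 (SE 0.23, limma adjusted p = 0.00572), by 1.35 after rescaling and by 1.55 after the length correction, and it was called without any 1 library. When only transcripts with a complete coding sequence were summed, the change was -1.60 and called (limma adjusted p = 0.000858).

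Vwf-203, of 8834 bases, is the transcript that encodes the whole protein. It stood at 10.02, 14.4 and 8.42 TPM in sham vehicle mice, 13.9, 12.7 and 14.9 TPM in sham prednisone mice, 16.2, 26.4 and 24.4 TPM in MI vehicle mice and 3.64, 3.94 and 3.40 TPM in MI prednisone mice. MI prednisone mice were thus the lowest of the 12 for this transcript, while mice 1 and 2 of that group had the highest gene sums. The gain lay in Vwf-209, a processed transcript of 456 bases, at 31.4, 28.6 and 22.0 TPM in MI prednisone mice and 0 to 7.0 TPM in the other 9, and in Vwf-210, annotated for nonsense-mediated decay, at 26.6, 26.9 and 15.3 TPM there and 4.99 to 13.4 TPM in the other 9.

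Both of these shorter transcripts end near the end of the gene. Vwf-209 (chr6:125685737-125686635) stops 44 bases and Vwf-210 stops 7 bases before the end of Vwf-203. Of the 426 words of 31 bases in Vwf-209, 353 also occur in Vwf-203, and of the 2656 in Vwf-210, 2627 do, so reads of the shared words cannot be assigned to a transcript by their sequence alone. The 73 bases that Vwf-209 does not share with Vwf-203 (chr6:125685737-125685809, plus strand) are shown in capitals before the start of the shared exon.
Vwf-209: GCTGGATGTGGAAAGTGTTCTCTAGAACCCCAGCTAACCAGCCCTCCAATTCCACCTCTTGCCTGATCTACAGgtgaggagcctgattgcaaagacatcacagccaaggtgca

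With the complete coding transcripts alone, Vwf also fell with prednisone in MI hearts by 2.21 (limma adjusted p = 0.000139), where the gene sum gave 0.48 and no call, and rose with infarction in vehicle mice by 0.98 (limma adjusted p = 0.00978). Summed platelet markers stood at 143, 139 and 107 TPM in MI prednisone mice. They stood at 88.4, 60.6 and 118 TPM in MI vehicle mice and 44.9 to 72.5 TPM in sham mice. Of the 5 platelet genes, 1 rose with infarction in prednisone mice as deposited and 2 after rescaling (2.73% and 11.7% of all genes). With prednisone in MI hearts 0 of the 5 were called as deposited, and all 5 rose after rescaling (2.5% and 14.6% of all genes). The part of platelets in the Vwf values was not tested.

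Of the 5 other signals and enzymes, Egfl7 rose in MI hearts with prednisone. Egfl7 (chromosome 2, 26580014 to 26593120, plus strand), a secreted protein that guides vessel tube formation, stood at 82.5, 82.5 and 74.4 TPM in sham vehicle mice, 74.0, 64.6 and 98.2 TPM in sham prednisone mice, 90.3, 104 and 98.6 TPM in MI vehicle mice and 193, 225 and 116 TPM in MI prednisone mice. The MI prednisone mice lay above all the other 9. The log2 change with prednisone in MI hearts was 0.81 (SE 0.22, limma adjusted p = 0.015), 1.26 after rescaling, 0.96 after the length correction and 0.58 with complete coding transcripts, called in each; it was not called with the most abundant transcript alone (0.30) or without MI prednisone mouse 1 or mouse 2 (values over all left-out libraries 0.61 to 1.09). Against sham prednisone mice the change was 1.13 (SE 0.22, limma adjusted p = 0.00612), called without any 1 library.

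Part of the Egfl7 rise lay in short transcripts. The most abundant form, Egfl7-202 of 1372 bases, stood at 40.3 ± 3.92 TPM in MI vehicle and 50.4 ± 9.72 TPM in MI prednisone hearts (SD, n = 3). Egfl7-211 of 723 bases went from 11.7 ± 1.32 to 31.2 ± 12 TPM, and Egfl7-213, a retained intron of 536 bases, from 9.65 ± 0.849 to 30.3 ± 13.4 TPM. Transcripts without a complete coding sequence took 3.61% to 6.84% of the summed TPM of the members that have a complete one in the 9 libraries outside MI prednisone and 8.58% to 10.1% in MI prednisone. Of a mean of 231 TPM of these transcripts in MI prednisone, Egfl7 held 76.7, Vegfa 55.5 and Vwf 50.8 TPM. Those of Cdh5, Emcn, Tie1 and Fli1 averaged lower in MI prednisone than in MI vehicle hearts. Over all genes with a complete coding transcript the share was 5.92% to 9.42% in the 9, with the highest in MI vehicle mouse 3. It was 6.90% to 10.5% in MI prednisone, so the ranges overlap.

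**Figure D3:**
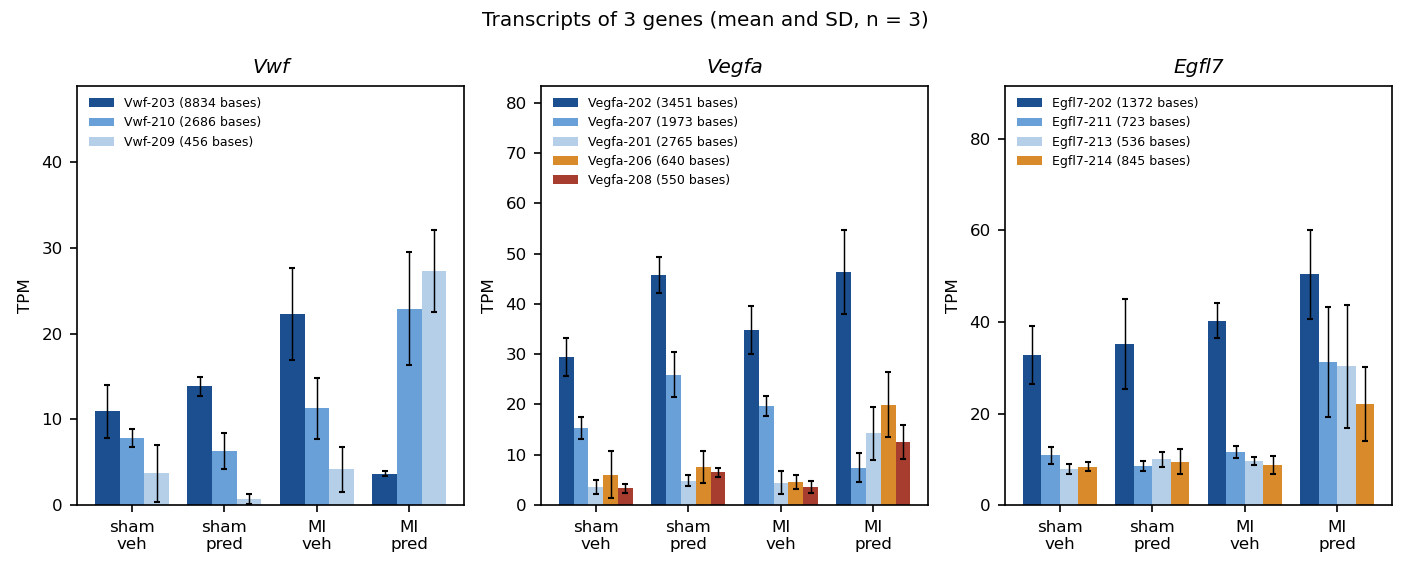
Mean TPM (vertical axes, from 0) of transcripts of Vwf, Vegfa and Egfl7 in the 4 groups (veh, vehicle; pred, prednisone), with SD (n = 3) and transcript lengths in the legends. In MI prednisone the longest Vwf transcript is at its lowest (3.66 TPM) while the 456-base transcript is at its highest (27.3 TPM).

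Ednrb, an endothelin receptor, stood at 4.73, 6.16 and 4.92 TPM in sham vehicle mice, 6.34, 5.45 and 4.89 TPM in sham prednisone mice, 8.75, 8.99 and 8.91 TPM in MI vehicle mice and 4.80, 4.42 and 4.21 TPM in MI prednisone mice. MI vehicle mice lay above all the other 9. Ednrb fell with prednisone in MI hearts by 0.85 (SE 0.13, limma adjusted p = 0.00148) and by 0.46 after rescaling, and the value after the length correction was -0.25, not called. The length used for Ednrb comes from transcripts that hold 34.8% of its TPM. The fall was also not called with the most abundant transcript alone. Nos3, which encodes the nitric oxide synthase of endothelium, ranged from 7.49 to 12.4 TPM, and its change with prednisone in MI hearts was -0.02 as deposited and 0.40 after rescaling (limma adjusted p = 0.0204). Pdgfb, the ligand that recruits pericytes, ranged from 9.4 to 14.4 TPM and was not called in any comparison under either scaling. Rgcc, a regulator of the cell cycle, stood at 99.7 TPM in MI vehicle mouse 3 and at 27.9 to 48.0 TPM in the other 11. In sham hearts the Rgcc values with prednisone (30.8, 27.9 and 29.95 TPM) lay below those with vehicle (35.8, 44.2 and 42.2 TPM), a change of -0.45 that was not called.

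The capillary lipid genes were not called as deposited. Fabp4, a fatty acid carrier of capillary endothelium that is also abundant in fat cells and macrophages, was the most abundant of the 39, at 680.4, 752 and 557 TPM in sham vehicle mice, 557, 543 and 642 TPM in sham prednisone mice, 846, 624 and 1470.3 TPM in MI vehicle mice and 936, 1583 and 727 TPM in MI prednisone mice. The mice of each MI group spread more widely than those of the sham groups. The 6 adipocyte markers summed, in the same order of mice, to 254, 362 and 18.9 TPM, 143.5, 138.7 and 156 TPM, 668, 16.8 and 1559.9 TPM, and 301, 869.5 and 261 TPM. In all 4 groups Fabp4 ranked the 3 mice in the same order as the adipocyte markers did, and the part of fat tissue in the Fabp4 values was not tested. Gpihbp1, which holds lipoprotein lipase on capillaries, stood at 72.6, 78.0 and 84.4 TPM in sham vehicle mice, 70.6, 75.4 and 80.8 TPM in sham prednisone mice, 76.1, 83.7 and 101 TPM in MI vehicle mice and 99.5, 111 and 86.0 TPM in MI prednisone mice. Its change with prednisone in MI hearts was 0.18 as deposited and 0.64 after rescaling (limma adjusted p = 0.00333).

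**Figure D4:**
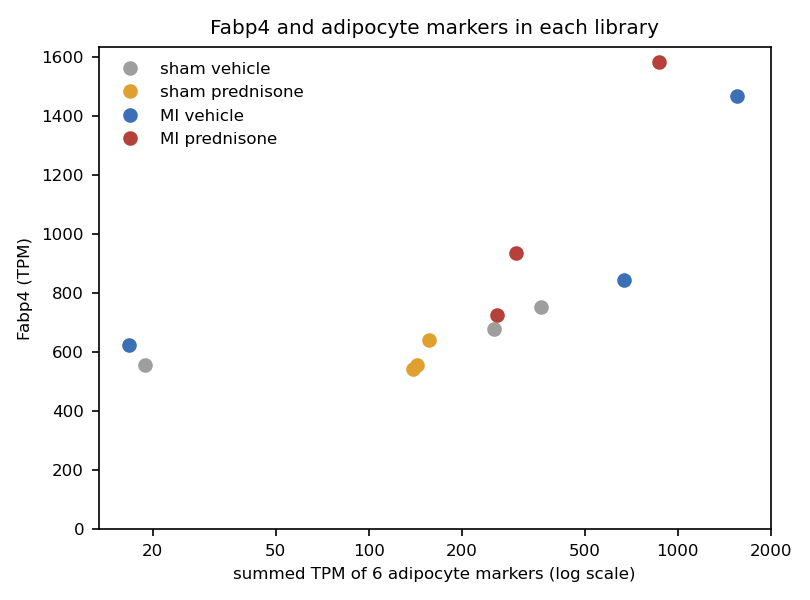
Fabp4 (vertical axis, TPM) against the summed TPM of 6 adipocyte markers (horizontal axis, log scale) in each of the 12 libraries, coloured by group. The libraries with the highest marker sums, 1559.9 and 869.5 TPM, have the highest Fabp4, and within each group the order is the same on both axes.

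Changes in prednisone-treated MI hearts varied with transcript length. Cldn5, Erg, Sox7, Mmrn2, Angpt1 and Pdgfb have no length in the annotation used, and the length correction leaves them out. The other 33 of the 39 genes have a length. Over these, the log2 change with prednisone in MI hearts and the length had a Spearman correlation of -0.36, and -0.38 over the 11894 genes with a length. For infarction in prednisone mice the values were -0.57 and -0.47, and for infarction in vehicle mice 0.11 and 0.03. Genes of a library are not independent points, and these correlations are descriptions. In MI hearts 2 rose and 1 fell with prednisone of the 12 members under 2000 bases (median log2 change 0.00057), 1 rose and 6 fell of the 12 from 2000 to 4000 bases (-0.38), and 0 rose and 4 fell of the 9 over 4000 bases (-0.30). Among all genes 2.5% rose and 34.9% fell.

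After correction for length within each library, 8 of the 33 rose and 3 fell with prednisone in MI hearts (background 8.75% and 7.69%), and the correlation over members was 0.04. The 3 that fell were Plvap, Fli1 and Ptprb. The mean transcript length of Plvap was 1987 bases. The part of transcript length in the changes was not tested beyond this correction.

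**Figure D5:**
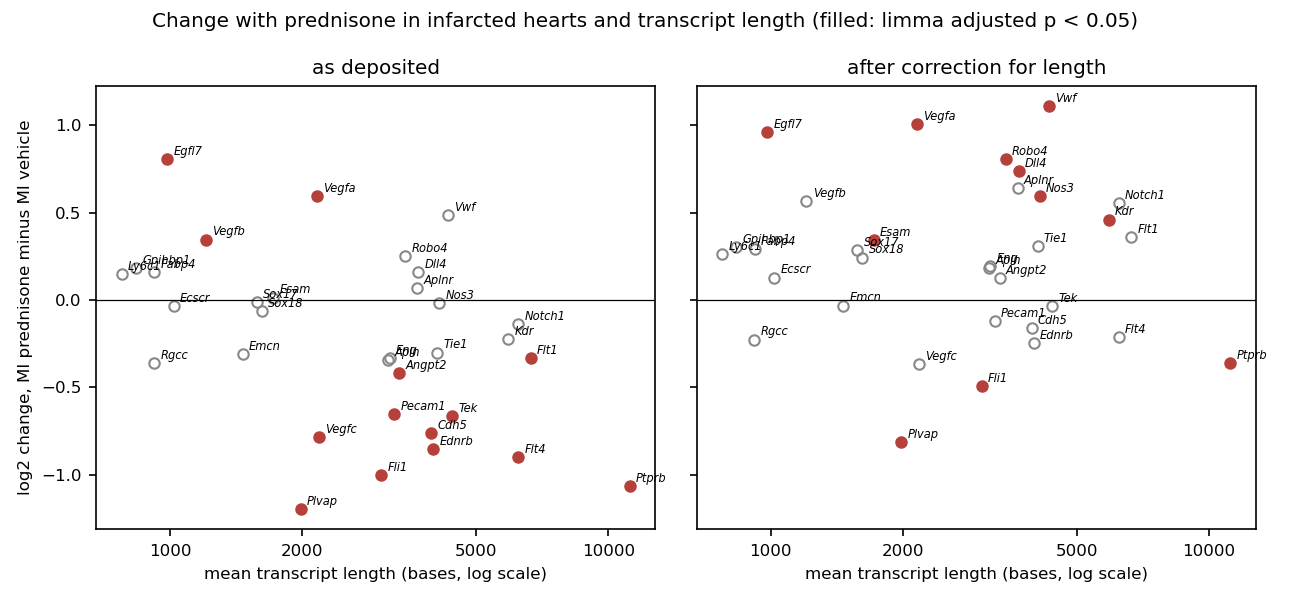
Log2 change with prednisone in MI hearts (vertical axis) against mean transcript length (horizontal axis, bases, log scale) for the 33 members with a length, as deposited on the left and after a length correction on the right; filled points have a limma adjusted p under 0.05. The Spearman correlation is -0.36 on the left and 0.04 on the right, where Plvap, Fli1 and Ptprb remain below 0 and called.

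Ratios of genes within a library do not depend on the library's scaling. They were not corrected for transcript length, so a slope with length can remain in them. The ratio of Angpt2 to Angpt1 was 0.102, 0.10 and 0.117 in sham vehicle mice, 0.230, 0.212 and 0.257 in MI vehicle mice, 0.147, 0.129 and 0.166 in sham prednisone mice and 0.261, 0.481 and 0.141 in MI prednisone mice. Neither MI vehicle nor sham prednisone mice overlapped sham vehicle mice, with log2 differences of 1.13 and 0.47. An exact two-sided permutation test of 3 against 3 mice gave p = 0.1 for each, the smallest it can give.

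The ratio of Vegfa to Flt1 was 4.86, 4.61 and 5.01 in sham vehicle mice, 6.37, 6.28 and 6.35 in sham prednisone mice, 4.65, 4.42 and 4.40 in MI vehicle mice and 6.56, 12.2 and 8.16 in MI prednisone mice. It was higher in every prednisone mouse than in every vehicle mouse. The mean transcript length was 2159 bases for Vegfa and 6655 for Flt1. With prednisone in MI hearts the log2 difference was 0.95, and 0.69 with the most abundant transcript of each gene. In sham hearts these values were 0.39 and 0.32. The ratio of Plvap to Pecam1 was 0.347, 0.463 and 0.316 in sham vehicle mice, 0.408, 0.393 and 0.413 in sham prednisone mice, 0.594, 0.758 and 0.838 in MI vehicle mice and 0.568, 0.556 and 0.368 in MI prednisone mice. The MI vehicle mice lay above all others. Vegfa to Flt1 with prednisone in MI and in sham hearts, and Plvap to Pecam1 with infarction in vehicle mice and with prednisone in MI hearts, each gave an exact permutation p = 0.1 (two-sided), which became 0.282 after Benjamini-Hochberg adjustment over the 12 ratios in the 4 comparisons. Each p compares 3 mice with 3, for which 0.1 is the smallest value possible.

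Marker transcripts of other cell types were measured alongside. As deposited, with infarction in vehicle mice 8 of 9 macrophage markers, 9 of 10 fibroblast markers and 4 of 6 markers of lymphatic endothelium rose, where 15.1% of all genes rose. In MI hearts 7 of 9, 7 of 10 and 5 of 6 fell with prednisone, where 34.9% of all genes fell. After rescaling 4 of 9, 4 of 10 and 4 of 6 rose with infarction in vehicle mice, and 3 of 9, 6 of 10 and 2 of 6 fell with prednisone in MI hearts, with 3.72% and 14.2% of all genes. Summed lymphatic markers were 167, 168 and 372 TPM in MI vehicle mice and 54.6 to 77.0 TPM in sham mice. In MI prednisone mice they were 134, 108 and 62.9 TPM, so mice 1 and 2 stayed above all sham mice. Ccl21a alone stood at 119, 120 and 299 TPM in MI vehicle mice and at 110, 84.7 and 44.7 TPM in MI prednisone mice. In sham mice it stood at 32.2 to 48.9 TPM. Of the 6 lymphatic markers, 0 rose and 2 fell with infarction in prednisone mice as deposited, beside 2.73% and 14.1% of all genes. After rescaling 2 rose and 3 fell, beside 11.7% and 14.3%. Flt4 and Vegfc, which lymphatic vessels use, were also highest in MI vehicle mice. Within that group they peaked in mouse 2, and the marker sum in mouse 3. In MI prednisone mice Flt4 overlapped its sham prednisone values. The part of lymphatic vessels in the values of Flt4, Vegfc or Plvap was not tested. Pericyte markers summed to 141 to 198 TPM in all 12 libraries, a sum in which Rgs5 alone stood at 67.6 to 109.5 TPM. Of the 8, 3 rose and 2 fell with prednisone in MI hearts as deposited, beside 2.5% and 34.9% of all genes. After rescaling 3 rose and 0 fell, beside 14.6% and 14.2%. With infarction in prednisone mice 3 rose and 1 fell under both scalings. The shares of all genes were 2.73% and 14.1% as deposited, and 11.7% and 14.3% after rescaling.

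A list of 88 further genes of vessel growth and endothelial function was examined, of which 84 passed the filter and Sele, Gdf2, Hgf and Foxf1 did not. Of the 84, 36 rose and 0 fell with infarction in vehicle mice, 0 rose and 12 fell with infarction in prednisone mice, and 1 rose and 42 fell with prednisone in MI hearts. In percent these are 42.9 and 0, 0 and 14.3, and 1.19 and 50, beside 15.1 and 0.904, 2.73 and 14.1, and 2.5 and 34.9 for all genes. After rescaling the counts were 10 and 1, 10 and 9, and 7 and 18, or 11.9% and 1.19%, 11.9% and 10.7%, and 8.33% and 21.4%. For all genes they were 3.72% and 3.72%, 11.7% and 14.3%, and 14.6% and 14.2%. In sham hearts limma called 0, with 5 at an unadjusted p under 0.05.

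Thbs1 is an inhibitor of angiogenesis. It stood at 4.07, 4.26 and 2.75 TPM in sham vehicle mice and at 9.92, 36.9 and 20.5 TPM in MI vehicle mice, which is 2.16 on the log2 scale (SE 0.40, limma adjusted p = 0.0113), and at 3.72, 5.90 and 3.00 TPM in MI prednisone mice, a fall of 2.03 with prednisone. Calcrl, the receptor of adrenomedullin, stood at 5.73, 8.29 and 5.62 TPM in sham vehicle mice, 11.1, 16.2 and 25.6 TPM in MI vehicle mice and 3.01, 2.05 and 4.43 TPM in MI prednisone mice. It fell with prednisone in MI hearts by 2.13 (limma adjusted p = 0.000964), and by 1.72 after rescaling. Icam1 and Vcam1, adhesion molecules for leukocytes, rose with infarction in vehicle mice by 1.23 and 1.19, and Vcam1 fell with prednisone in MI hearts by 1.55.

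With infarction in prednisone mice, Mef2c, a muscle and endothelial transcription factor (-1.36), Cd36, a fatty acid transporter (-1.28), and Fgf2, a growth factor (-1.04), fell, each called under both scalings. Changes in this comparison sloped with transcript length over all genes (Spearman correlation -0.47), and length-corrected values of these 3 genes are not given here. Cd36 stood at 671, 659.9 and 661 TPM in sham prednisone mice and 265, 209.8 and 363 TPM in MI prednisone mice. Cd36 is also abundant in cardiomyocytes. Of 10 cardiomyocyte markers 4 fell and 0 rose in the same comparison (median log2 change -0.37), beside 14.1% and 2.73% of all genes. After rescaling 2 fell and 0 rose (median -0.26), beside 14.3% and 11.7% of all genes. The summed markers, which include Atp2a2, averaged 43588 TPM in sham prednisone and 40464 TPM in MI prednisone mice. Atp2a2, the calcium pump of the sarcoplasmic reticulum, stood at 2936 ± 99.1 TPM in sham prednisone and 1274 ± 428 TPM in MI prednisone mice (SD, n = 3). The part of cardiomyocyte RNA in the Cd36 values was not tested. Slit3, a guidance ligand that binds Robo receptors, differed in its response to prednisone between MI and sham hearts by -1.79 (SE 0.29, limma adjusted p = 0.0063).

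RefSeq promoter windows (GRCm38) matched 20 of the 39 genes, with 26 windows. In the 250 bases before the start, on both strands, the core of ETS sites (CCGGAA) occurred in 1 of the 26 windows, that of Kdr, and in 12% of all 32851 windows. The core of hypoxia response elements (ACGTG) occurred in 1, a window of Vegfa, and in 16.6% of all windows. The E-box CACGTG, whose last letters are that core, occurred in 0 of the 26 and in 6.02% of all, and the palindromic glucocorticoid response element in 0 of the 26 and in 0.00913% of all.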

How the data were processed

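RNA of 12 hearts was sequenced from libraries made with a stranded mRNA kit, per the labels' protocols. The authors deposited a table of TPM values, which sum to 1000000 in each library, for 105129 transcripts. Trimmomatic, HISAT2, kallisto and the build mm10 are named per the submitters' processing notes, and their roles, versions and settings are not given in the sources used here. TPM keeps no read depth, so the depth per sample and its counting error are unknown.

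Transcripts were summed by gene symbol, and a gene was kept where 3 or more libraries reached 1 TPM. As the values are TPM, log2(TPM + 1) was tested with limma 3.58.1 in R 4.3.3, with 1 mean for each group, an intensity trend and Benjamini-Hochberg adjustment over all 13158 genes. Fold changes are on the log2(TPM + 1) scale, which understates those of low genes. The fit was checked on simulated data with independent normal noise for each gene. Those data held no library-wide shift, outlying library or slope with length, so the check does not cover these. Transcript annotation, lengths and positions came from GENCODE M21 (GRCm38), which holds 94.7% of the deposited transcript identifiers; 90.4% of the genes kept have a length. The length correction subtracted a smooth curve of deviation against length from each library. Ratios were compared with exact permutation tests.

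The members and lists were chosen with earlier results of these data known. Values in every library are given for a fixed set of genes and for the 3 members with the largest called rise and fall in each comparison among those of at least 5 TPM. Replicate numbers belong to different mice. Alternatives were rescaling, another pseudocount, no filter, other transcript sums, removal of mitochondrial and globin genes, a replicate block, the length correction and each library left out. The sums of complete coding transcripts and the centring without a length curve were chosen after seeing the data.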

Additional observations from a re-analysis of the deposited data

Results flagged for a closer look

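For 13 of the 39 genes the change with prednisone differed between infarcted and sham hearts by the interaction term of the limma fit, and in each the difference was negative. Of all genes, 20.7% had a called negative difference. As log2 differences these were -1.54 for Plvap, -1.22 for Ptprb, -1.15 for Fli1, -1.13 for Flt4 and -1.03 for Tek. They were -0.98 for Erg, -0.92 for Ednrb, -0.92 for Mmrn2, -0.91 for Cdh5 and -0.88 for Pecam1. They were -0.79 for Angpt2, -0.59 for Kdr and -0.56 for Flt1. The median of all genes in this contrast was -0.48. After rescaling, of these 13, Plvap, Ptprb, Fli1 and Tek were called in the same direction. After the length correction, which covers 11 of the 13, 0 were called, and Kdr (0.21) and Flt1 (0.25) changed sign.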

How the results depend on the processing

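Limits: 3 mice a group, TPM without depth, 1 library (MI vehicle mouse 3) that stands apart, and a slope of the changes with transcript length. The length correction and the centring cover only the 33 of 39 genes that have a length. Of 39 genes, 18 were called with infarction in vehicle mice; this was 4 after rescaling, 5 with the most abundant transcript, 10 with a replicate block, 7 without mitochondrial, nuclear-copy and globin genes, 3 with the length correction and 3 with centring only. It was 0 with only the groups compared (23 at an unadjusted p under 0.05 by limma) and 0 with the length correction and replicate block (8 unadjusted). Leaving out 1 library gave 1 to 24. With infarction in prednisone mice 9 were called, against 14 without mitochondrial, nuclear-copy and globin genes, 5 with the length correction, 4 with that and the replicate block, and 2 to 18 with 1 library left out. With prednisone in MI hearts 17 were called, against 5 with only the groups compared, 11 with the length correction, 9 with that and the block, and 13 to 19 with 1 library left out. In sham hearts 0 were called, and 1 (Vegfa) with only the groups compared. The interaction was called in 13 (all negative), against 7 after rescaling (4 of the 13, and 3 positive), 5 with centring only (3 of the 13), 1 with the length correction (positive, none of the 13), 0 with that and the block (9 unadjusted by limma), and 7 to 17 with 1 library left out.

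The median change of the members minus that of all genes was 0.07 with infarction in vehicle mice, 0.27 with no filter, and 0.0043 to 0.20 with 1 library left out. With prednisone in MI hearts it was 0.11, and -0.16 with no filter and 0.23 with the length correction, with or without the replicate block. For the interaction it was 0.06, -0.24 with no filter, 0.22 with the length correction, with or without the block, and -0.10 to 0.18 with 1 library left out. Ratios without overlap with infarction in prednisone mice numbered 4, and 4 to 7 with 1 library left out.

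Directions turned for these genes, and the cause was not tested. With infarction in vehicle mice Esam was -0.017 after rescaling and -0.0093 with the length correction, with or without the block. With infarction in prednisone mice Kdr was 0.019 with the length correction, with or without the block, Vwf -1.67 with the most abundant transcript and -1.60 with complete coding transcripts, and Erg 0.055 with the most abundant transcript. With prednisone in MI hearts Flt1 was 0.10 after rescaling, 0.056 with centring only and 0.36 with the length correction, and Angpt2 0.13 with the length correction, with or without the block. In the interaction Kdr was 0.21 and Flt1 0.25 with the length correction, with or without the block.

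Same-numbered mice did not deviate together: the mean correlation of their deviations over the 3 numbers was -0.37, -0.05, -0.25 and 0.0028 in the 4 comparisons, so the replicate block pairs mice that share only a number.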
